A study of Mus musculus with 4 samples.

Results

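The CpG cytosines around the ends of protein-coding genes were described in liver DNA of 4 male mice profiled by enhanced reduced representation bisulfite sequencing (ERRBS). The ends were those of the longest curated RefSeq messenger RNA of each autosomal gene on mm10, by genomic span, and a cytosine was taken when it lay within 1000 bases of such an end, more than 2000 bases from every annotated transcription start site (TSS), and had at least 10 reads in all 4 mice. A cytosine near several ends was assigned to the nearest one. Of 1276684 cytosines common to the 4 mice, 1253673 lay on autosomes and 21143 (1.66% of all common cytosines) met the rule. They belonged to 17691 CpG dinucleotides and to 3134 of 20021 gene ends (15.7%). Inside the transcript lay 14814 of them (70.1%) and beyond its end 6329, and 2443 lay near more than 1 end. The measured ends held a median of 4 cytosines, 1349 ends held at least 5, and the 100 ends with the most cytosines held 25.1% of all.

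The mice were Mixed-1 and Mixed-2, from an undefined background that includes C57BL/6J and other strains, and B6-1 and B6-2, which are C57BL/6. All were males of 6 to 8 weeks on a normal diet, and the labels give no treatment and no engineered allele. The pairs were kept at different institutions, so strain, housing and depth cannot be told apart. Liver is a mixture of cell types, and a methylation level shared by all cells cannot be told apart from one that differs between them. The assay does not separate 5-methylcytosine from 5-hydroxymethylcytosine either. Values of single mice are given with the Mixed pair first and the B6 pair second, each in the order of its numbers.

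Median coverage of the gene-end cytosines was 39 and 43 reads in the Mixed mice and 61 and 58 in the B6 mice. Coverage summed over the cytosines was 880227 to 1361931 per mouse, where a read is counted at each cytosine it covers. Each mouse is 1 sample, so levels were compared with exact permutation tests over 4 mice, whose p-values measure the spread between these mice. Reads amplified by PCR are not independent molecules, so limits and spreads computed from read counts cover counting error only. Around the starts of 12 hepatocyte genes, 5 had common cytosines, with means between 0.354% (Trf) and 25.1% (Hnf4a) and a median of 2.07%. Of 3 muscle genes, the starts of Myog (92.8%) and Ckm (84.6%) were methylated and that of Myod1 (9.87%) was not, and the neuronal gene Snap25 was at 1.42%, so these starts do not by themselves define the tissue.

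A gene's 3′ end is where the messenger RNA precursor is cut and given its poly(A) tail, usually just downstream of an AATAAA or ATTAAA hexamer, and RNA polymerase II reads on past it before it lets go. In mammals most CpGs are methylated, also along the bodies of transcribed genes. Stretches that keep many CpGs, called CpG islands, are mostly unmethylated and usually lie at starts, although some lie inside genes or at their ends. Around genes of developmental transcription factors, long unmethylated stretches can cover the whole gene, a pattern known for targets of the Polycomb proteins. The paper describes ERRBS as combining the restriction enzymes MspI, which cuts at CCGG, and TaqαI. The assay still samples such CpG-rich stretches more than the rest of an end.

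A few stretches from low-methylated ends (mean under 20%), from high-methylated ends (over 80%) and from 1 end with a wide spread between mice show the CpGs that were measured. They are shown because these ends held the most cytosines of their class or had among the largest spreads, and had 100 bases free of every annotated exon. All are from the RefSeq mm10 genome, written 5′ to 3′ along the gene, with the measured CpGs in capitals. Tbx1 is chr16:18582457-18582556 on the minus strand, in an intron. Tlx3 is the intron at chr11:33201490-33201589 on the minus strand, Prr7 the intron at chr13:55472437-55472536 on the plus strand, and Vstm2l the intron at chr2:157943757-157943856 on the plus strand. Pias4 is chr10:81153760-81153859 on the minus strand, which starts 102 bases beyond the gene and lies outside annotated genes. Grin3b is chr10:79977854-79977953 on the plus strand, beyond the gene and within an intron of Tmem259. Krt86 is the intron at chr15:101479276-101479375 on the plus strand.
Tbx1: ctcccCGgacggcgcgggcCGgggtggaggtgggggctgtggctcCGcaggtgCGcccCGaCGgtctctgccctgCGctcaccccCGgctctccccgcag
Tlx3: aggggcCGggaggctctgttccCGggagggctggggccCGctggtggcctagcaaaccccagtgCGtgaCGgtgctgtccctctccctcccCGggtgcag
Prr7: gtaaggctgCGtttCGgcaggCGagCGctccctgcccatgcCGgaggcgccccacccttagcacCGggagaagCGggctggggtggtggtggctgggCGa
Vstm2l: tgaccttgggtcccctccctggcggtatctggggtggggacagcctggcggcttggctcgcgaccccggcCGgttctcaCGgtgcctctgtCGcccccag
Pias4: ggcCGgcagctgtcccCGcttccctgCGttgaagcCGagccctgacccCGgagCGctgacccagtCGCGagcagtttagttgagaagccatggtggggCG
Grin3b: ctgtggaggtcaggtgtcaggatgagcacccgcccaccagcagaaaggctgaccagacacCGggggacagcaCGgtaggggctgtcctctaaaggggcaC
Krt86: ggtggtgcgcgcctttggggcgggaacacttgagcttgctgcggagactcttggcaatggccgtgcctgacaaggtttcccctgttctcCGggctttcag

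In the Tbx1 stretch, 12 cytosines of 8 CpGs averaged 2.90% over the mice, and in the Prr7 stretch 15 cytosines of 8 CpGs averaged 0.433%. The Pias4 stretch held 9 measured CpGs, and its 16 cytosines averaged 84.1%, with 85.4% and 85.9% in the Mixed mice and 77.7% and 87.5% in the B6 mice. A similar number of CpGs in 100 bases was thus seen with methylation near 0% and above 80%. The single measured CpG of the Krt86 stretch was at 38.6% in Mixed-1, above the 10.6% of Mixed-2 and the 4.76% and 1.43% of the B6 mice.

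The mean over all gene-end cytosines was 55.8% and 56.2% in the Mixed mice and 55.6% and 55.8% in the B6 mice, or 55.9% ± 0.271 (SD, n = 4). This mean describes few cytosines, since 31.9% of them were under 20% methylated, 45.8% were over 80% and 22.3% lay between. Cytosines in gene bodies, meaning inside the same transcripts but away from starts and ends, averaged 71.1% ± 0.357, and those outside genes 67.8% ± 0.343. Gene ends minus gene bodies was -15.2 percentage points on average and below 0 in 4 of 4 mice, and gene ends minus intergenic was -11.9 points and below 0 in 4 of 4 mice. Each p was 0.125 in the two-sided exact sign-flip permutation test, the smallest that 4 mice allow, and 0.167 after Benjamini-Hochberg adjustment over 4 such comparisons. With every end counted once, and gene bodies and intergenic cytosines still averaged over cytosines, gene ends lay 1.81 points above gene bodies and 5.11 points above intergenic cytosines. Those 2 values set unlike weightings side by side, and the other regions were not reweighted. Of the 44 ends with 50 or more cytosines, 37 were low-methylated, and low-methylated ends held 36.6% of the cytosines at ends with at least 5.

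Averaged over cytosines, methylation was flat inside, dipped at the end and was highest in the first 400 bases beyond it. Inside, apart from the last 100 bases, the 100-base bins averaged between 54.1% and 58.0%. In the last 100 bases, 507 cytosines averaged 52.1% and 52.5% in the Mixed mice and 52.1% and 52.0% in the B6 mice. In the first 100 bases beyond, 575 cytosines averaged 61.9% and 62.3% in the Mixed mice and 60.6% and 61.1% in the B6 mice, so the 4 mice on the far side lay above the 4 on the near side. In the next 300 bases the mean was 62.5% ± 0.334, and from there to 1000 bases beyond it was 51.5% ± 0.244 (SD, n = 4). The lowest bin of all, which ended 700 bases beyond, averaged 48.0%. The peak beyond the end did not hold under other weightings. Standardised to the mix of CpG densities of all gene-end cytosines, the mean was highest over 500 bases inside (58.6%). It stood at 52.2% in the last 100 bases, at 55.6% in the first 100 beyond and at 57.0% in the next 300. With each end counted once, the mean over 500 bases inside was again highest (72.4%), against 65.7%, 69.9% and 71.8%.

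**Figure D1:**
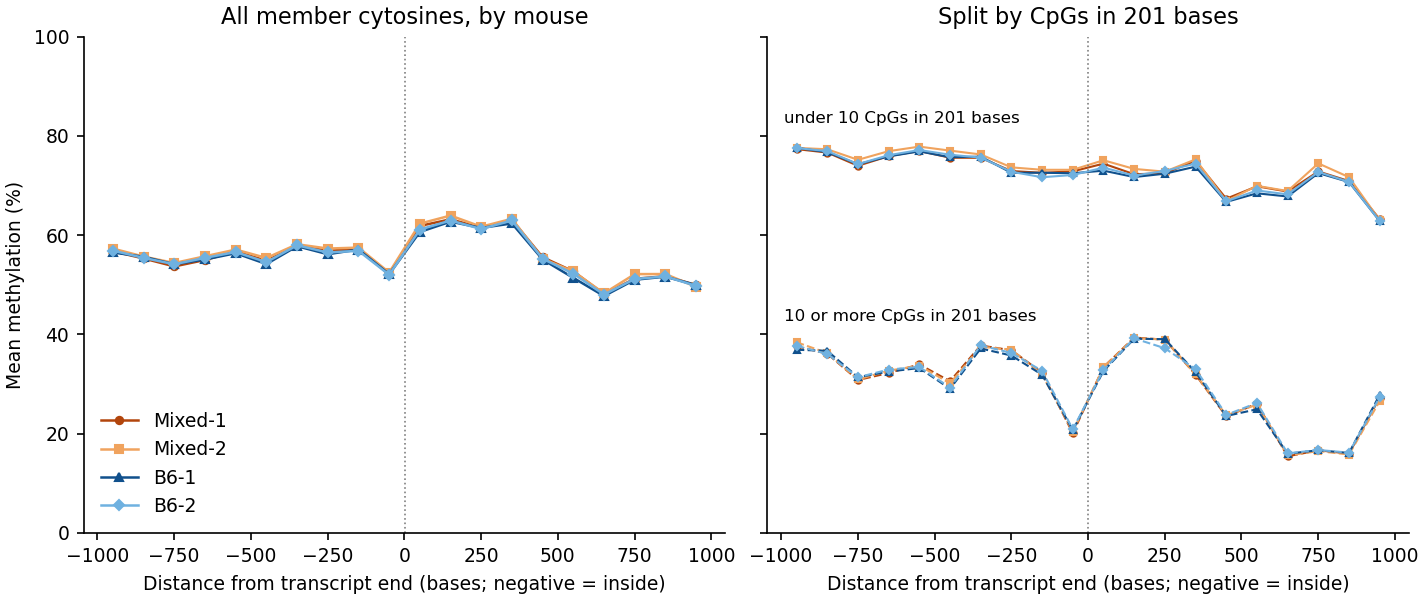
Mean methylation (%) of gene-end cytosines in 100-base bins by distance from the transcript end, with negative distances inside the transcript, for each of the 4 mice. Left, all cytosines, with a dip to 52.2% in the last 100 bases and 61.5% in the next 100; right, cytosines with under 10 and with 10 or more CpGs in the surrounding bases (100 on either side), where the 4 mice again lie almost on top of each other.

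The 2 bins that flank the end averaged 2.78 ± 0.311 points more than the bins over 500 bases away (SD of the difference, n = 4, above 0 in 4 of 4 mice, exact sign-flip p = 0.125, adjusted p = 0.167). That difference turned to -2.04 points with ends weighted equally and to -2.53 points when cytosines within 5000 bases of a TSS were left out. The reference genome itself changed across the end: it held 0.856 CpGs per 100 bases in the last 100 bases and 1.31 in the bin farthest inside, at positions over 2000 bases from a TSS. Only 3.20% of the CpGs in the last 100 bases were measured, against 7.94% in the best-covered bin inside. Ends contributed unevenly as well, with 205 ends in the last 100 bases and 239 in the first 100 beyond.

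Cytosines were then grouped by CpG density, the number of reference CpGs at and within 100 bases on either side of them, since CpG-dense DNA is often unmethylated in mammals. At gene ends with 1 to 4 CpGs the mean was 76.3% ± 0.693, with 5 to 9 it was 72.7% ± 0.338, with 10 to 14 it was 53.6% ± 0.0981, and with 15 or more it was 17.6% ± 0.160 (SD, n = 4). The densest class held 25.8% of the gene-end cytosines, against 10.5% in gene bodies and 9.45% outside genes. Gene ends were lower than gene bodies in every class and in every mouse, by differences of -1.21, -4.99, -17.0 and -7.57 points from the sparsest to the densest class. Weighted to the density of the gene ends, the difference from bodies was -7.04 points, smaller than the raw -15.2. Against intergenic cytosines the 4 differences were -0.101, 0.165, -11.5 and -2.47 points, so below 10 CpGs the gap was small, and the first was below 0 in only 2 of 4 mice.

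Inside and beyond the end had nearly the same mean over all cytosines, 55.9% ± 0.263 and 55.8% ± 0.315. The difference, 0.0498 ± 0.153 points, was within the spread between mice (above 0 in 3 of 4 mice, exact sign-flip p = 0.5, adjusted p = 0.5), and it was -4.68 points within 500 bases of the end. Within each class of CpG density, however, the inside was higher in 4 of 4 mice. The difference was 2.67 ± 0.320 points with 1 to 4 CpGs, 6.93 ± 0.249 with 5 to 9, 17.3 ± 0.410 with 10 to 14 and 3.10 ± 0.161 with 15 or more (SD of the difference, n = 4). Each p was 0.125 in the exact sign-flip permutation test, and 0.134 after adjustment over 15 comparisons of this kind. Counting each end once gave 1.78, 4.47, 17.5 and 7.93 points. Over the alternatives run within classes, which did not include pooling reads, the 3 sparser classes kept the direction, from 0.646 to 3.37, from 2.92 to 8.44 and from 6.16 to 25.6 points. The inside held more of the densest class, 28.7% against 18.9% beyond, and fewer cytosines with 1 to 4 CpGs, 14.4% against 26.8%. The difference in the densest class rested on 209 ends inside and 70 beyond, and within 500 bases of the end it was -2.78 points.

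**Figure D2:**
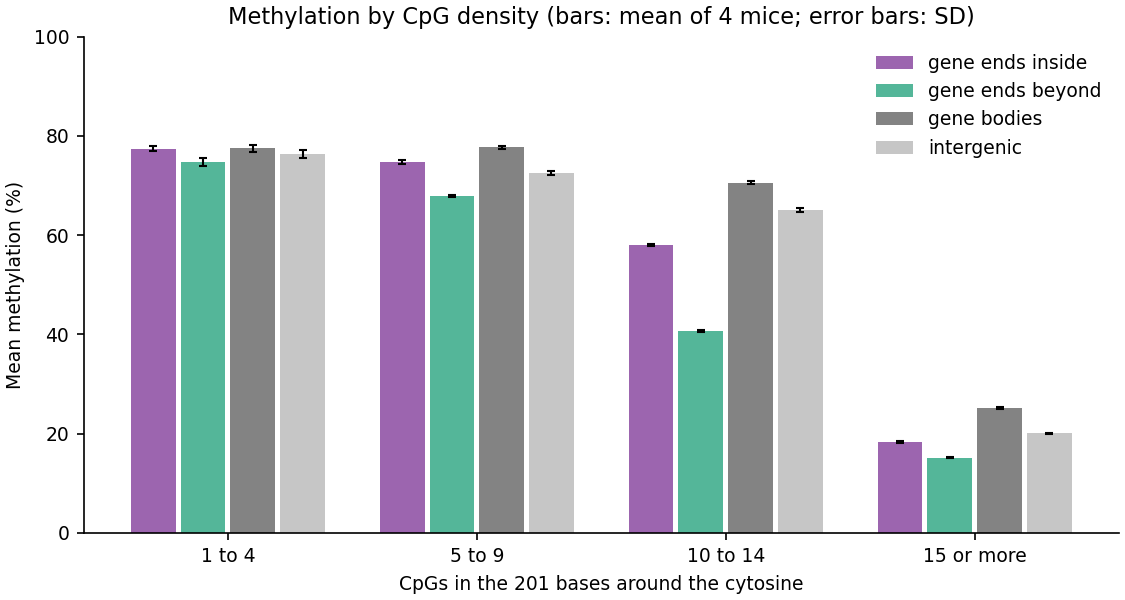
Mean methylation (%) by CpG density, the number of CpGs at and within 100 bases of a cytosine, for gene ends inside the transcript, gene ends beyond it, gene bodies and intergenic cytosines; bars are means of 4 mice and error bars the SD. Inside exceeds beyond in each class, most with 10 to 14 CpGs, where gene bodies stand at 70.6%.

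By annotation, cytosines in coding exons at gene ends averaged 51.8% ± 0.201 and had a median density of 12 CpGs. Those in untranslated exons averaged 60.8% ± 0.386 with a median of 7 CpGs, and those in introns 63.6% ± 0.418 with 6. Beyond the end, 64.6% of the cytosines lay outside every annotated gene and averaged 54.5% ± 0.359, while 13.3% lay in an annotated coding exon and averaged 57.3%. Whether that exon belonged to a neighbouring gene or to another transcript of the same gene was not separated. Surroundings were called island-like where at least 50% of the bases were G or C and CpGs reached over 0.6 of the number that base composition predicts. There the mean was 28.4% ± 0.0952, and elsewhere it was 72.1% ± 0.394. Island-like surroundings held 40.6% of the cytosines inside and 28.9% of those beyond.

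Methylation also differed with the distance from the nearest annotated TSS. It averaged 44.3% ± 0.194 between 2 and 3 kb from a TSS, 46.7% ± 0.232 between 3 and 5 kb, 56.1% ± 0.269 between 5 and 10 kb and 69.7% ± 0.336 between 10 and 20 kb, and was 67.3% ± 0.612 farther away (SD, n = 4). The distance rule itself removed 24318 of the 45461 common autosomal cytosines within 1000 bases of an end, and those removed averaged 15.4%. In the 500 bases farther from a TSS than the 2000-base bound, 1816 cytosines averaged 41.0%, and in the 500 bases nearer than it, 1868 averaged 38.6%. At the window's own bound, the last 100 bases within 1000 bases of an end averaged 54.9% and the next 100 averaged 56.0%. Neither bound sat at a step in methylation.

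Of 321 ends with a measured cytosine on both sides, the inside was higher at 169 and the beyond side at 152. The inside was higher by more than 25 points at 41 of them and lower by more than 25 points at 35. At the 135 ends with at least 3 cytosines a side, the inside was higher by 3.19 points on average (4 of 4 mice, exact sign-flip p = 0.125) and by 0.786 at the median end. The most unequal ends with at least 5 cytosines a side were named after their values were seen. At Slc11a1, a metal ion transporter of macrophage endosomes, 5 cytosines inside were at 94.5% and 95.3% in the Mixed mice and 94.9% and 96.3% in the B6 mice. The 21 cytosines beyond it were at 0% and 0.4% in the Mixed mice and 0.424% and 0.197% in the B6 mice. In Mixed-1 the coverage summed over these cytosines was 719, with no methylated call. A read that covers several of them is counted at each, so the limit of 0.417%, which takes the calls as independent, is too narrow. At Slc16a3, a lactate transporter, the order was opposite, with 13.96% over 7 cytosines inside and 89.8% over 14 beyond. Slc13a2, a dicarboxylate transporter of kidney and gut, had 14.2% inside and 83.8% beyond. These boundaries were present in all 4 mice.

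The 1349 ends with at least 5 cytosines fell into 2 peaks. Low-methylated ends, under 20% on average over the mice, numbered 230 (17.0%), high-methylated ends, over 80%, numbered 696 (51.6%), and 423 lay between. The median end was at 81.2%. The share of low ends was 12.2% when cytosines within 5000 bases of a TSS were left out and 33.6% among ends with at least 10 cytosines. Among the low ends, 142 were under 5%, their median was 3.82%, 217 were under 20% in all 4 mice, and at 139 every cytosine was under 20%. Among the high ends 628 were over 80% in all 4 mice, and no end was under 20% in 1 mouse and over 80% in another. The share of low ends was 16.9% in both Mixed mice and 17.0% in both B6 mice (difference 0.148 points, B6 minus Mixed, two-sided exact permutation p = 0.333, the smallest that 2 against 2 allow).

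**Figure D3:**
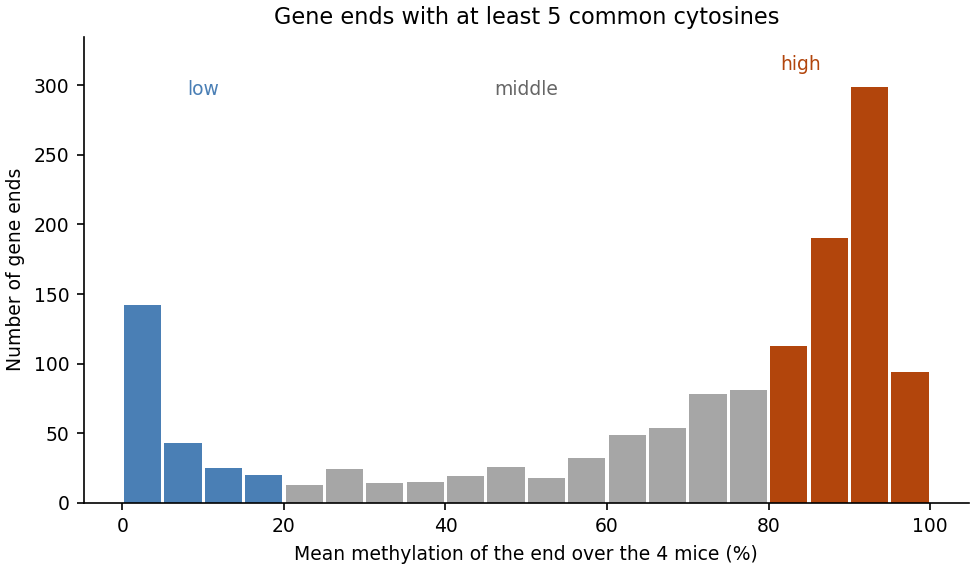
Number of gene ends by mean methylation (%) over the 4 mice, for the 1349 ends with at least 5 common cytosines, in bins of 5%. Low ends (under 20%, 230 ends) gather below 5%, where 142 ends lie, and 393 of the high ends (over 80%, 696 ends) lie above 90%.

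Low-methylated ends were CpG-dense, held many cytosines and belonged to short genes. They held a median of 17 cytosines and a median density of 14 CpGs, against 8 and 8 over all 1349 ends, and 69.6% were mostly island-like against 25.5%. Of the ends with 50 or more cytosines 84.1% were low, and of those with 5 to 9 only 6.74%. The median genomic span of their genes was 6896 bases, against 14352 over all ends, and the median distance to a TSS was 4549.5 bases against 6565. Even so, 96 of the 230 lay over 5 kb from any annotated TSS, 65 of these island-like. A GENCODE transcript start lay within 2000 bases of most cytosines at 25.7% of low ends and at 25.1% of all. Dense ends occurred in every class: of 170 with a density of 15 or more CpGs, 111 were low and 24 high.

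The poly(A) signal hexamers AATAAA or ATTAAA, searched on the gene's strand in the last 40 bases of the transcript, were present at 71.3% of low ends and 73.9% of high ends. Over all 20021 ends they were present at 71.3%. Single-exon genes made up 4.78% of low ends and 1.85% of all. The other parts of the low genes were often unmethylated too. In the 129 low genes with at least 5 body cytosines the body's median was 28.0%, with 55 bodies under 20% and 28 over 80%. High ends had bodies with a median of 82.6% in 431 genes. The starts of low and high genes alike were near 0, with medians of 1.75% and 0.338%.

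The 10 low ends with the most cytosines included those of developmental transcription factors and of synaptic genes, and each of the 10 was under 5% on average. Tbx1, a T-box factor of the pharyngeal arches and heart, had the most, with 167 cytosines at its end on chromosome 16 (position 18581704). They averaged 2.67% and 2.70% in the Mixed mice and 2.71% and 2.06% in the B6 mice, and every one was under 20%. Its body, with 18 cytosines, averaged 28.0%, and its start 1.18%. All Tbx1 cytosines lay within 2000 bases of a GENCODE transcript start, a median of 1148 bases from it, so this end drops out when those starts are counted. Tlx3, a homeobox factor of spinal neurons on chromosome 11 (33200752), had 114 cytosines at 1.68% and 1.70% in the Mixed mice and 1.68% and 1.54% in the B6 mice, and its start was at 3.36%. Nkx1-1, another homeobox factor, had 87 at 2.49% ± 0.152, with its start at 2.11%. In these 3 genes the start and the end were both low-methylated.

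Otud7a, a deubiquitinase, ended on chromosome 7 (63759027) with 140 cytosines at 1.28% and 1.21% in the Mixed mice and 1.63% and 1.46% in the B6 mice. They lay a median of 63408 bases from any RefSeq TSS and 3642 from a GENCODE start, while the gene's body averaged 33.6% over 105 cytosines. Zfp771, a zinc finger gene, also held 140, all inside, at 0.816% and 0.357% in the Mixed mice and 0.515% and 0.549% in the B6 mice. Grik5, a kainate receptor subunit, averaged 3.68% over 98 cytosines inside its last 1000 bases, where 71.4% lay in coding sequence. Its body averaged 89.7% over 40 cytosines, so the end stood apart from the body. Its start, at 19.1% over 30, was also under 20%. Vstm2l, with an immunoglobulin V domain, was alike: the end averaged 2.52%, the body 78.3% over 13 cytosines and the start 6.21% over 87.

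Prr7, a proline-rich synaptic protein, averaged 2.16% over 93 cytosines, C1qtnf4, a relative of complement C1q, 3.79% over 88, and Rtn4rl2, a Nogo receptor homologue, 4.64% over 85. The few cytosines beyond these 3 ends were higher, at 50.6% for Prr7 (2 cytosines), 59.1% for C1qtnf4 (1) and 40.6% for Rtn4rl2 (3), against 1.09%, 3.15% and 3.32% inside. Within 500 bases of the C1qtnf4 end, the mean was 32.4%. The SD over the mice at the 10 ends ranged from 0.0761 (Tlx3) to 0.463 (Rtn4rl2) points.

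**Figure D4:**
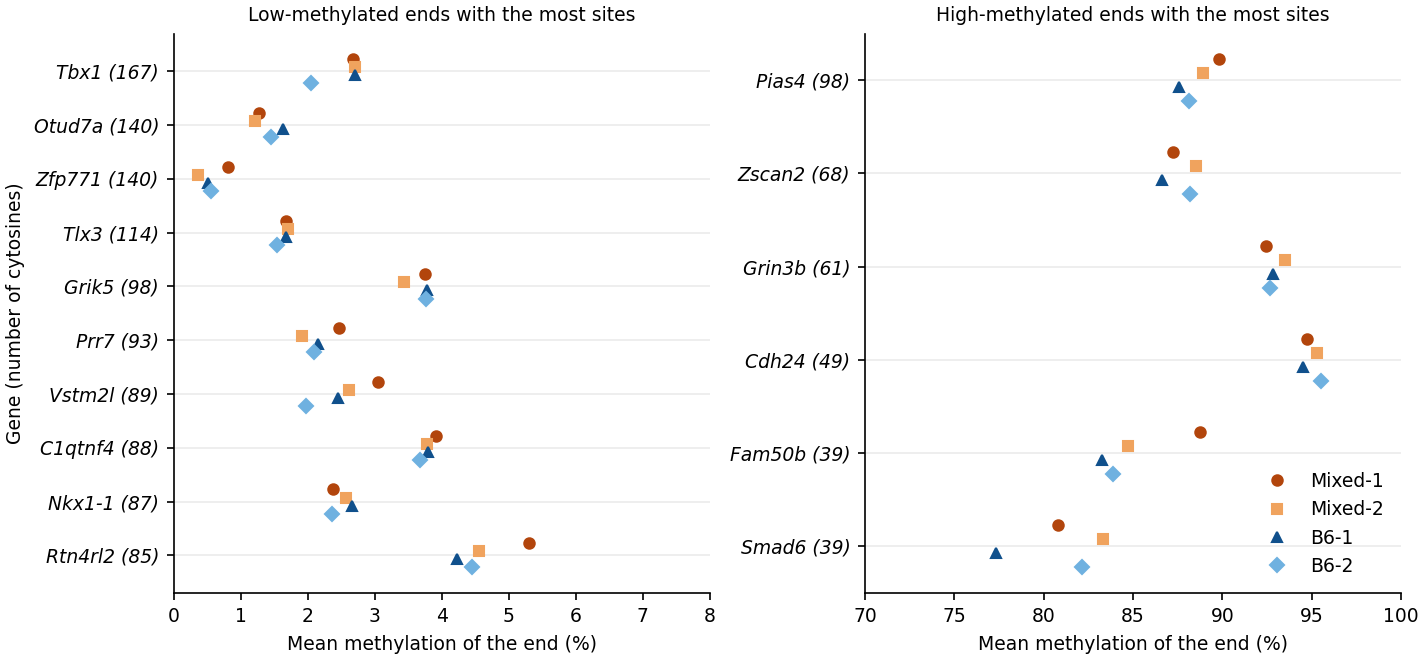
Mean methylation (%) in each of the 4 mice at the 10 low-methylated (left) and 6 high-methylated (right) gene ends with the most cytosines, whose number stands in parentheses; the 2 axes cover different ranges. All low ends lie under 6% in each mouse, and the high ends from 77.3% (Smad6, B6-1) to 95.5% (Cdh24, B6-2).

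The 6 high ends with the most cytosines had median densities between 15 and 26 CpGs, as many low ends did. Pias4, a SUMO ligase, ended on chromosome 10 (81153961) with 98 cytosines at 89.8% and 88.9% in the Mixed mice and 87.6% and 88.1% in the B6 mice. Cdh24, a cadherin on chromosome 14 (54631992), had 49 cytosines, all in coding sequence and with a median density of 26 CpGs, at 94.8% and 95.3% in the Mixed mice and 94.5% and 95.5% in the B6 mice. Its start was at 0.341% over 73 cytosines. Zscan2, a zinc finger gene with a SCAN domain, averaged 87.6% ± 0.876 over 68. Grin3b, an NMDA receptor subunit, averaged 92.9% ± 0.449 over 61, of which 59 lay beyond its transcript, on the side of the convergent gene Tmem259. The Grin3b cytosines lay a median of 1269 bases from a GENCODE start, so this end too drops out when those are counted. Fam50b averaged 85.2% ± 2.48 and Smad6, an inhibitor of BMP signalling, 80.9% ± 2.59, over 39 cytosines each. Among these 6 ends the SDs of Fam50b and Smad6 were the widest.

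Gene families are given as counts and medians only. Of 111 genes of homeobox and other developmental transcription factors, such as the Nkx, Sox, Tbx and Gata families, 21 had an end with at least 5 cytosines, and 17 of these were low, against 17.0% of all ends, with a median of 4.56% against 81.2% for all ends. Nkx2-6, a homeobox factor of pharynx and heart, was lowest, with 44 cytosines at 0.619% and 0.868% in the Mixed mice and 0.268% and 0.363% in the B6 mice. Among those that were not low, Gata3 was highest at 93.4%, Tbx4 was at 85.7% and Sox12 at 64.0%. At these 3 ends the median density was 4 or 5 CpGs, against 11 for the list and 8 over all ends. Of the 17 low ends, only Tbx2 (9492 bases) and Lhx5 (9176.5) lay farther from a TSS than the median over all ends (6565). The share of low ends in this list was not adjusted for density or distance.

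Zinc finger genes named Zfp, most of them of the C2H2 kind, had a median of 85.7% at 29 ends, with 17 high and 5 low, where 51.6% of all ends were high and 17.0% low. The 5 low ones were Zfp771, Zfp36 (0.613%), Zfp423 (3.02%), Zfp503 (4.50%) and Zfp853 (11.8%). Zfp423 and Zfp503 are developmental regulators and Zfp36, a protein with CCCH and not C2H2 fingers, binds messenger RNA. Zfp777 was highest at 97.1%. Zfp423 had a methylated body, 73.5% over 193 cytosines. Of 6 potassium channel ends 4 were low, against 17.0% of all ends. Kcnab3, a channel beta subunit, was lowest (0.696%), Kcnk15 had the most cytosines (43, 14.9%) and Kcnk16 was highest (88.5%).

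Few ends of liver genes were measured. Among secreted plasma proteins, 5 of 38 genes had an end with at least 5 cytosines, with a median of 74.3% and none low. The end of Fga, fibrinogen alpha, was lowest, at 20.2% and 16.7% in the Mixed mice and 19.2% and 25.9% in the B6 mice. F7, coagulation factor VII, was highest at 91.4%. Among liver metabolic enzymes and their regulators, 3 of 30 genes qualified. Pck1, the gluconeogenic phosphoenolpyruvate carboxykinase, was at 16.1% and 20.8% in the Mixed mice and 18.1% and 24.8% in the B6 mice. Ass1, of the urea cycle, averaged 38.0% and Srebf1, a regulator of lipid synthesis, 42.2%. At Fga and Pck1 the median density was 5 and 7 CpGs, against 14 at low ends, and their bodies were at 32.4% and 28.9%.

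In the remaining lists the few measured ends were all high, where 51.6% of all ends were high. An end with at least 5 cytosines was held by 2 of 80 ribosomal protein genes and 1 of 42 collagen genes. It was held by 1 of 67 protocadherin genes and 2 of 17 genes of DNA methylation, too few to describe these families. Ribosomal protein genes gave Rpl8 (94.4%) and Rps14 (88.1%), collagens Col6a2 (93.6%) and protocadherins Pcdh12 (93.3%). Among writers, erasers and readers of DNA methylation, the ends of Tet1 (95.4%) and Mbd3 (92.9%) were measured.

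Ends of convergent genes shared cytosines, and the 4 pairs that shared the most covered the whole range. Elovl3, a fatty acid elongase, and Pitx3, a homeobox factor of lens and dopamine neurons, end 9 bases apart on chromosome 19, and their 81 shared cytosines were at 0.191% and 0.250% in the Mixed mice and 0.221% and 0.388% in the B6 mice. Grin3b and Tmem259 shared 80 cytosines at 92.1% ± 0.644. Hcn2, a pacemaker channel, and Polrmt, the mitochondrial RNA polymerase, shared 79 at 70.1% ± 1.78. Fam171a2 and Grn, progranulin, shared 75 at 38.1% ± 0.729. All had a mean density between 16.8 and 25.9 CpGs. Of the low ends 8.70% and of all ends 14.2% had a convergent end within 1000 bases.

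The mice were close to each other at gene ends. The median SD over the 4 mice was 2.07 points over the 1349 ends. Binomial counting of the reads alone would give 1.59 points if the cytosines of an end were independent. Cytosines on the same reads are not, so counting can give more than that, and the gap is not read as spread between mice. The median SD was 0.771 at low, 3.48 at middle and 1.87 at high ends. The highest and lowest mouse lay over 10 points apart at 173 ends (12.8%) and over 25 points apart at 5. Spread was smaller at ends with more cytosines, from a median of 2.31 with 5 to 9 to 0.421 with 50 or more. Low ends made up 6.74% of the former and 84.1% of the latter. Counting alone would give 1.92 and 0.308 points, so the number of cytosines was not separated from these. Pairs of mice differed by 2.99 to 3.23 points per end on average, by 3.03 and 2.99 within the strains and by 2.99 to 3.23 between them. Of 131 ends with an SD over 5 points, Mixed-1 stood farthest from the rest at 39, Mixed-2 at 27, B6-1 at 30 and B6-2 at 35. No single mouse accounted for the spread. At single cytosines of between 20% and 80% the median SD was 8.27 points at gene ends, 8.33 in gene bodies and 8.61 outside genes, and counting alone would give 6.73 at gene ends.

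The 6 ends of at least 5 cytosines with the largest SD were Celf4, Grik4, Krt86, Impdh1, Fam83h and Srebf1. The end of Celf4, a neuronal RNA-binding protein on chromosome 18, had 9 cytosines in its untranslated exon, at 17.6% and 46.1% in the Mixed mice and 65.8% and 41.2% in the B6 mice. The SD was 19.8 points, the widest among ends with at least 5 cytosines. The order of the extreme mice held at each of the 9 cytosines, with Mixed-1 lowest and B6-1 highest. Grik4, a kainate receptor subunit, had 13 cytosines at 23.9% and 52.1% in the Mixed mice and 46.7% and 55.7% in the B6 mice. Its 11 coding cytosines inside averaged 37.1% and its 2 beyond 85.8%. Krt86, a hair keratin, was at 33.7% in Mixed-1, 5.28% in the other Mixed mouse and 6.34% and 4.84% in the B6 mice over 16 cytosines. Mixed-1 was highest at each of them except 1 that had no methylated read in any mouse. At Celf4 and Krt86 neighbouring cytosines share reads, so the same order along a run is not a set of independent observations. GENCODE starts lay a median of 230 bases from the Grik4 cytosines and 802.5 from those of Krt86, and both ends drop out when they are counted.

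Impdh1, a rate-limiting enzyme of guanine nucleotide synthesis, was of another kind. Its mean was 60.1% in Mixed-1 and between 82.9% and 85.8% in the others, and this rested on both cytosines of 1 CpG in its untranslated exon. They had no methylated read of 12 and of 15 in Mixed-1, which allows a share of up to 25% and 20%, while the other mice stood between 75.9% and 90.9% there. The other 4 cytosines in Mixed-1 stood between 84.6% and 95.7%. A base change that removes a CpG is read as unmethylated on both strands, and genotypes were not analysed here. Fam83h had 6 cytosines at 71.4% and 83.6% in the Mixed mice and 57.9% and 60.1% in the B6 mice. Srebf1 had 8, all 915 to 961 bases beyond the gene in an untranslated exon of its convergent neighbour Rai1, at 37.6% and 34.0% in the Mixed mice and 58.6% and 38.8% in the B6 mice.

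**Figure D5:**
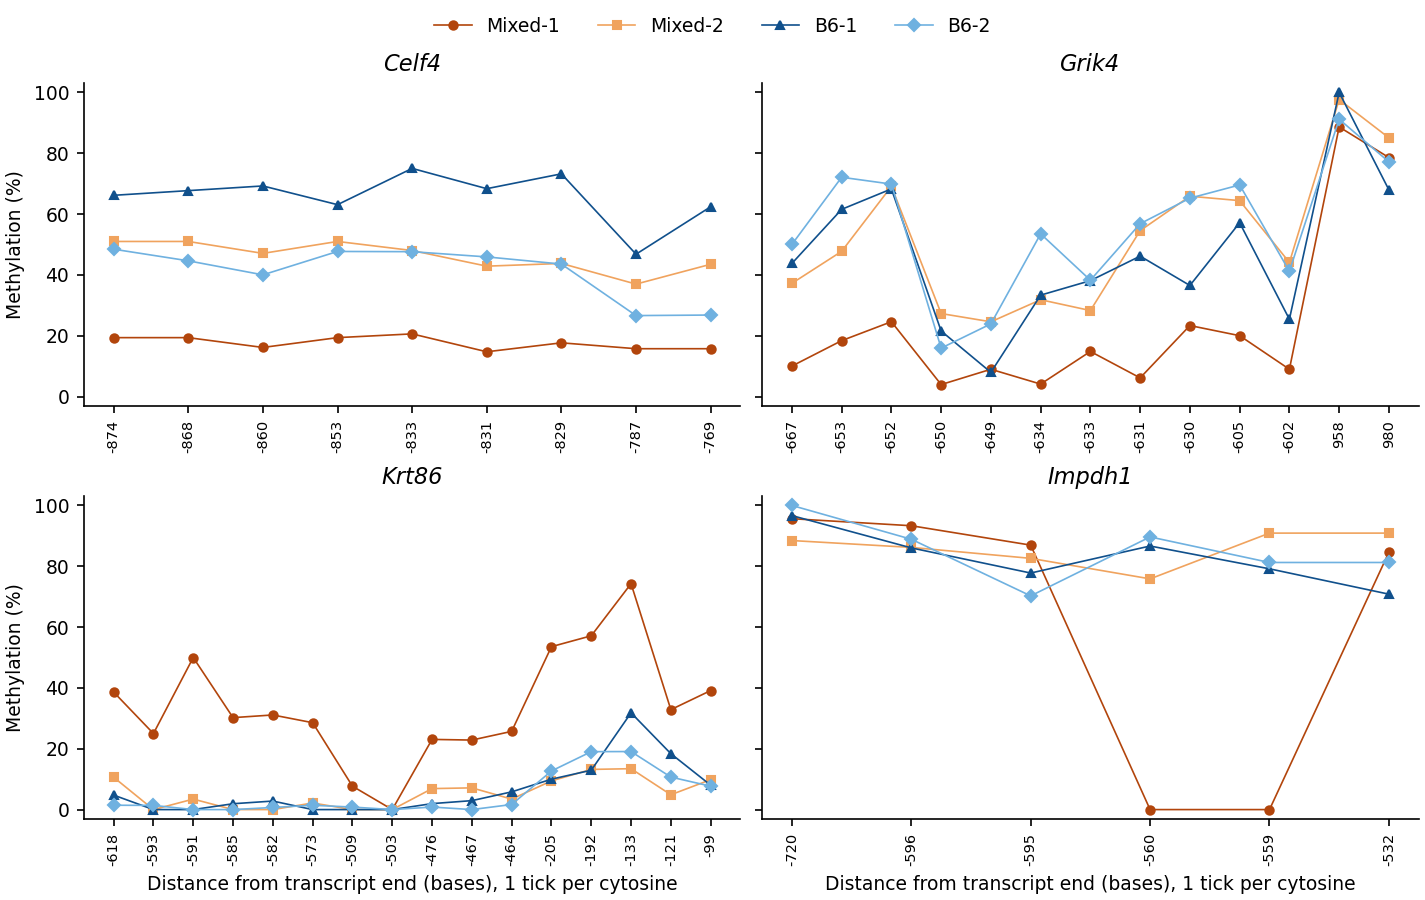
Methylation (%) of each cytosine in each of the 4 mice at the 4 gene ends with the largest SD over mice; ticks give each cytosine's distance from the transcript end in bases, negative inside, and are evenly spaced. Celf4, Grik4 and Krt86 differ between mice along a run of cytosines, while Impdh1 differs at 1 CpG, at 0% in Mixed-1.

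The mean at gene ends was 56.0% ± 0.290 in Mixed and 55.7% ± 0.125 in B6 (SD, n = 2), and the lower Mixed mouse, at 55.82%, lay just above the higher B6 mouse, at 55.77%. The difference of -0.346 points had p = 0.333 in the two-sided exact permutation test, the smallest that 2 against 2 allow. At 36.4% of the ends with at least 5 cytosines, 491, the 2 pairs of mice did not overlap, and B6 was the higher pair at 223. This count covers all ends analysed, so it is its own background, and nothing is read from it. The 6 such ends with the largest difference were Fam83h, Esrrg, Tmem140, Ptgis, Gdf9 and Srebf1, each with 5 to 8 cytosines. Fam83h was lower in B6 by a difference of -18.5 points. At its CpGs measured on both strands, the pairs separated only on the forward strand. At 76002050 that strand gave 73.1% and 100% in Mixed and 56.25% and 37.0% in B6. The reverse strand of that CpG gave 69.2% and 71.8% against 63.6% and 80.6%. At 76002077 the forward strand gave 79.2% and 95.8% against 53.3% and 51.9%. Its reverse strand gave 65.1% and 71.8% against 61.8% and 74.4%. The reverse cytosine at 76002087 was at 67.4% and 70% against 55.9% and 61.5%. Esrrg, an orphan nuclear receptor, was at 65.3% and 63.5% in Mixed and at 48.7% and 48.98% in B6. Ptgis, prostacyclin synthase, was higher in B6, at 71.9% and 68.6% against 56.4% and 57.1%. Gdf9, an oocyte growth factor, was at 91.2% and 94.9% in Mixed and at 82.3% and 77.0% in B6. Srebf1, with a difference of 12.9 points, rested on B6-1: it was 3.04 points without that mouse and 22.8 without B6-2. Tmem140 and Ptgis drop out when GENCODE starts are counted. These ends were picked for their difference and carry no test.

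Site by site, 1 of the 21143 gene-end cytosines differed between strains at an adjusted p under 0.01 and at least 25 points, in a logistic model with overdispersion moderated by limma and adjusted over all common cytosines. Over all 1276684 common cytosines 70 were called (0.00548%). At an unadjusted p under 0.05 and 25 points it was 98 gene-end cytosines (0.464%) against 0.295% of all, with B6 higher at 47 and lower at 51. The called cytosine lay 235 bases beyond the end of Tsr3, an enzyme that modifies 18S ribosomal RNA, on chromosome 17 at position 25243034, within an untranslated exon of the convergent gene Baiap3. It had no methylated read of 67 in Mixed-1 and of 73 in Mixed-2, which allows shares of up to 4.48% and 4.11%, and it was at 96.3% of 54 reads in B6-1 and 98.2% of 57 in B6-2 (adjusted p = 1.04e-05 in the limma-moderated model). The nearest cytosines, 20 to 25 bases away on either side, stood between 91.1% and 100% in all 4 mice. The call was limited to 1 cytosine with methylated neighbours, and whether the base itself differs between the strains was not tested. With a block for replicate number in the limma-moderated model, its adjusted p was 0.109 and 0 gene-end cytosines were called. The difference of strain means, 97.3 points, was computed without the block and could not change. The call also fell away when GENCODE transcript starts were added to the distance rule, since such a start lies within 2000 bases of this cytosine. The difference was 98.2 points without B6-1 and 96.3 without B6-2, where its adjusted p was 1 and 0 gene-end cytosines were called, while 9 were called without Mixed-2.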

How the data were processed

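For each mouse the deposited table gave every covered CpG cytosine with its coverage, a count of reads, and the percent of reads with C and with T, as the authors' pipeline wrote them with at least 10 reads per cytosine. The paper's methods name BSMAP as the aligner, while the submitters' processing notes name Bismark and SAMtools, with the mm10 build. Replicates were not pooled. Methylated and unmethylated reads were recovered from coverage and percent.

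Ends, TSSs and sequences came from RefSeq on mm10 (GRCm38), and GENCODE starts were an added check. Levels are means over cytosines in each mouse. The gene lists, members and tests were chosen with earlier results of these data known. Differences within mice were tested with the exact sign-flip permutation test and strain differences with the exact permutation test, both two-sided. Each common cytosine was fitted with a logistic model whose overdispersion was moderated by limma 3.58.1 in R 4.3.3, with Benjamini-Hochberg adjustment over all cytosines. The prior was estimated from cytosines of 10% to 90%, a departure from the planned use of all cytosines, because those at 0% or 100% gave no usable dispersion. The model was checked on simulated data. Named ends were the 10 low and 6 high ends with the most cytosines, the 6 with the largest SD, the 6 with the largest strain difference between groups that did not overlap, every end with a called cytosine, the extremes of each list and the 4 convergent pairs sharing the most cytosines. The alternatives tried changed coverage, strands, TSS set and distance, transcript choice, window, weighting, bounds, test, and left out each mouse. Same-numbered mice did not deviate together (r = 0.000298 over ends, 0.0221 over cytosines), so the numbers were not used as pairs. A base change that removes a CpG also reads as unmethylated, and genotypes were not analysed here. Some items are not reported here.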

Additional observations from a re-analysis of the deposited data

How the results depend on the processing

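The difference between inside and beyond the end, 0.0498 points, turned to -0.0519 with strands merged, -0.95 at over 5000 bases from any TSS, -0.13 with the longest transcript by spliced length, -4.68 within 500 bases of the end, -0.168 without cytosines near several ends, -0.715 with reads pooled and -2.16 with GENCODE starts added, and within 500 bases the class of 15 or more CpGs turned to -2.78. The flanking bins minus the outer bins turned to -2.53 over 5000 bases from a TSS and to -2.04 with ends weighted equally, and that weighting, applied to gene ends alone, put them 1.81 points above gene bodies and 5.11 above intergenic cytosines. Within 500 bases no outer bins remain, so that difference has no value there. The cause of these turns was not tested.

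The share of low ends, 17.0%, became 19.7% at a coverage of 20, 19.4% with strands merged, 18.2% with starts of curated transcripts alone, 12.2% over 5000 bases from a TSS, 19.9% within 500 bases, 18.3% without shared cytosines, 16.9% with reads pooled, 12.7% with at least 3 and 33.6% with at least 10 cytosines per end, 13.7% at a bound of 10%, 17.6% with GENCODE starts and 16.7% to 17.0% when 1 mouse was left out. The share of high ends, 51.6%, became under the same settings 49.2% (coverage of 20), 51.0% (strands merged), 51.0% (curated), 56.5% (over 5000 bases), 49.8% (within 500), 51.0% (no shared cytosines), 56.4% (at least 3), 38.4% (at least 10) and 29.1% (a bound of 90%).

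The 1 strain-variable cytosine became 2 with a coverage ceiling, 0 over 5000 bases from a TSS, 0 without shared cytosines, 0 with GENCODE starts, 3 at an adjusted p under 0.05 and 10 points and 44 by Fisher's exact test on pooled reads, which ignores the spread between mice. Leaving out 1 mouse gave 0 to 9, with 9 without Mixed-2 and 0 without B6-1 or B6-2, where the lone mouse is assumed to vary like the others. Fitted with the replicate block, the count was 0, with 3664 cytosines of all at an unadjusted p under 0.05 and 25 points. With the numbers as pairs the mean strain difference is -0.346 by arithmetic, so pairing could not change it. The strain difference of the mean kept its sign throughout, from -0.884 to -0.141. At the named ends 27 values moved by more than 1 SD over mice, 12 of them within 500 bases of the end, and 176 did not. Ends left with no value under a setting are not among these; with GENCODE starts they were Tbx1, Grin3b, Grik4, Krt86, Tmem140 and Ptgis. Depth of 39 to 61 reads per cytosine limits single cytosines more than ends.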

Other observations

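Gene-end cytosines in annotated repeats, 773 in number, averaged 67.5% ± 0.204 (SD, n = 4). Those beyond the end were at 76.0% and those inside at 57.5%, while gene-end cytosines outside repeats had 54.4% beyond and 55.8% inside. The next gene-end cytosine by adjusted p after that of Tsr3 lay 175 bases beyond Gdf1, a growth factor of left-right patterning, and stood at 1.47% and 48.7% in the Mixed mice and at 96.3% and 96.7% in the B6 mice (limma-moderated adjusted p = 0.0301), so the Mixed mice also differed from each other there. It was named after its values were seen.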
